A study of Macaca mulatta with 16 samples.

Results

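DNA methylation in whole blood was compared between old rhesus monkeys kept on caloric restriction (CR-old, 3 monkeys) and old monkeys fed ad libitum (AL-old, 4 monkeys), at the 33134 autosomal sites of the 362007 listed that had at least 100 reads in all 3 CR-old libraries and in at least 3 of the 4 AL-old libraries. The 7 monkeys were among 16 in the series, each with 1 library. The CR-old monkeys, all female, were 24.9 (monkey 1), 23.7 (monkey 4) and 25.1 years old (monkey 28). Of the AL-old monkeys, monkey 2 was a female of 23.7 years, and monkeys 7, 24 and 33 were males of 29.8, 21.9 and 29.3 years. Diet and sex therefore cannot be told apart, except for what AL-old 2 shows as the only female fed ad libitum at this age. The 4 youngest monkeys of the series (AL-infant, 0.8 to 0.9 years) and the 5 of 10.4 to 12.1 years (AL-middle), all fed ad libitum, were used here to class the sites. The restricted monkeys had 30% fewer calories, and per the study the diet began in middle age and had been kept for many years. How long each of the 3 monkeys was restricted is not in the labels. Whole blood is a mixture of cell types whose shares were not measured, so a change of methylation within a cell type and a change in the shares of the types cannot be told apart. The labelled tissue could not be checked against blood markers, since the sites are not paired with genes here.

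Caloric restriction is studied for its effects on ageing in many laboratory animals, including long studies of rhesus monkeys. DNA methylation, the addition of a methyl group to cytosine before guanine, is mostly absent from CpG islands at active gene starts and dense in the rest of the genome. With age, blood is known to gain methylation at some sites that start out low and to lose it at some sites that start out high, which is called methylation drift. The question of the comparison was whether monkeys of similar age on a restricted diet differ in this pattern. Digital restriction enzyme analysis of methylation (DREAM) reads 1 CpG within each CCCGGG site: SmaI cuts the unmethylated sites first, XmaI then cuts the methylated ones, and the sequence at the start of a read shows which enzyme had cut.

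Each site has 2 deposited percentages, and the comparison differed between them. The uncorrected percent gives the methylated reads out of all reads at the site. In the corrected percent the odds of methylation are multiplied by 1 constant per library, which the authors took from DNA standards of known methylation added to each sample. The constant was 0.772 in CR-old 1, 0.494 in CR-old 4 and 0.627 in CR-old 28. It was 0.424 in AL-old 2, 0.319 in AL-old 7, 0.250 in AL-old 24 and 0.365 in AL-old 33. The groups did not overlap, so that the correction lowered the odds of methylation more in AL-old. It raised the odds of CR-old over AL-old by a factor of 1.86. The constants of AL-middle (0.469 to 0.728) overlapped those of CR-old, and those of AL-infant were 0.398 to 0.460.

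The standards themselves were read on both scales. The constants came from these standards, so their corrected values show what the correction left. Neither those values nor their p values are an independent check. Uncorrected, the Luc306 standard read 27.6%, 42.6% and 30.4% in CR-old and 50.1%, 59.7%, 68.2% and 50.5% in AL-old. After correction it read 22.7%, 26.8% and 21.5% in CR-old and 29.8%, 32.0%, 34.9% and 27.1% in AL-old, lower in every CR-old library. The Taq353 standard went the other way after correction, with 49.5%, 42.4% and 48.8% in CR-old and 40.8%, 39.7%, 34.7% and 39.0% in AL-old. The corrected Gpf414 standard overlapped, with a mean of 45.9% ± 1.25 (SD, n = 3) in CR-old and 45.4% ± 2.88 (SD, n = 4) in AL-old. The correction thus left a difference of -7.27 points at Luc306 and of 8.34 points at Taq353, CR-old minus AL-old (two-sided exact permutation test, p = 0.0571 and 0.0286, both 0.114 adjusted over 10 tests). The part of these differences in the results for the genome was not tested. Results over many sites are given on both scales, and values at single sites are corrected unless stated.

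**Figure D1:**
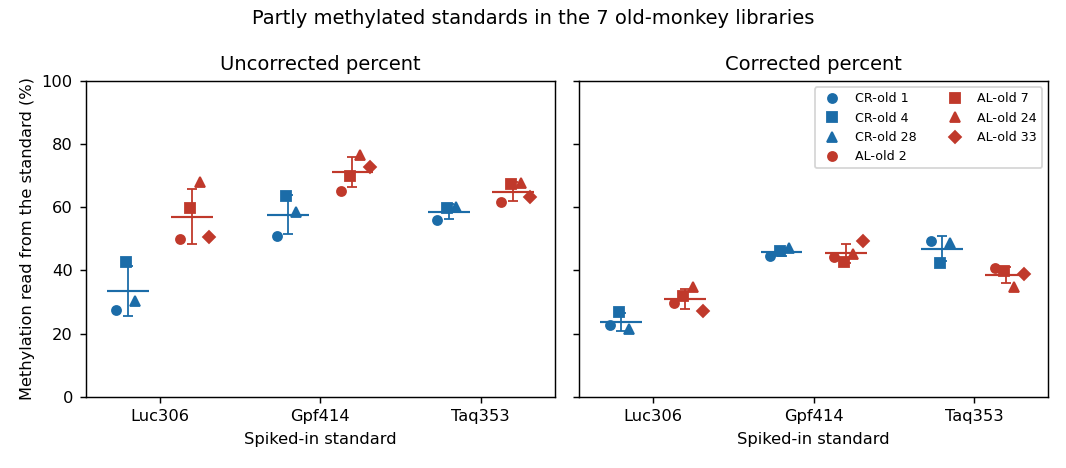
Methylation (%) read from the 3 partly methylated standards in the 7 libraries, uncorrected on the left and corrected on the right, with group mean and SD as bars. All uncorrected CR-old values lie below the AL-old values, whereas after correction CR-old is lower at Luc306, overlaps at Gpf414 and is higher at Taq353.

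Read totals were 121369394, 18089849 and 129172235 in CR-old and 19801924, 57201027, 8075854 and 18620761 in AL-old. The median number of reads at the compared sites ranged from 360 to 2702 in CR-old and from 136 in AL-old 24 to 1091 in AL-old 7. AL-old 24 was under 100 reads at 11904 of the compared sites and was left out there. Means per monkey were therefore taken over the 20759 sites with 100 reads in all 7 libraries, or over the 20580 of them with a level in at least 3 AL-infant monkeys.

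Averaged over these 20580 sites, the corrected methylation was higher in every CR-old monkey than in any AL-old monkey. It was 44.2%, 42.1% and 43.9% in CR-old 1, 4 and 28, and 37.9%, 40.3%, 37.0% and 35.7% in AL-old 2, 7, 24 and 33. The CR-old mean of 43.4% ± 1.10 (SD, n = 3) exceeded the AL-old mean of 37.7% ± 1.93 (SD, n = 4) by 5.70 points (two-sided exact permutation test, p = 0.0571, adjusted p = 0.098 over 12 tests). AL-infant averaged 43.9% at the same sites and AL-middle 41.7%. The smallest p that 3 against 4 monkeys allow is 0.0286. Uncorrected, the means were 46.1%, 47.4% and 47.4% in CR-old and 45.98%, 49.3%, 48.9% and 45.7% in AL-old, and the groups overlapped (difference -0.51 points, exact permutation p = 0.657).

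Sites were then classed by their corrected mean in AL-infant, which was not part of the comparison of the diets. The 5202 sites over 90% in AL-infant are the class in which drift is known to lower some sites. Their corrected methylation was 93.2%, 91.5% and 92.7% in CR-old and 84.5%, 89.1%, 85.2% and 81.1% in AL-old. All CR-old monkeys were higher, by 7.54 points on average (exact permutation p = 0.0571, adjusted p = 0.098). Uncorrected, the 3 CR-old values of 94.65%, 95.5% and 95.2% were above those of AL-old 2 (92.3%) and 33 (91.3%), and below or level with those of AL-old 7 (96.01%) and 24 (95.5%). The difference on that scale was 1.38 points, with an exact permutation p of 0.40. AL-old was the more variable group, with an SD of 2.36 points against 0.438 in CR-old.

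The 3899 sites between 65% and 90% in AL-infant showed the largest corrected difference of the 5 classes. Their corrected means were 78.6%, 74.0% and 77.5% in CR-old and 61.9%, 69.0%, 61.0% and 56.5% in AL-old, a difference of 14.6 points (exact permutation p = 0.0571, adjusted p = 0.098). The uncorrected means were 82.4%, 84.7% and 84.3% in CR-old and 78.0%, 86.7%, 85.0% and 76.2% in AL-old, again with CR-old inside the range of AL-old. At the 1283 sites between 35% and 65%, the corrected difference was 12.03 points (exact permutation p = 0.0286, adjusted p = 0.098) and the uncorrected one -1.75 points (exact permutation p = 0.571). For both classes the corrected groups did not overlap and the uncorrected groups did.

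At the 8892 sites under 5% in AL-infant, a class in which drift is known to raise some sites, the result depended on the scale in the opposite way. The uncorrected mean was 2.04%, 2.27% and 2.65% in CR-old and 3.88%, 3.85%, 4.49% and 4.92% in AL-old, with AL-infant at 0.970%. CR-old was lower in all 3 monkeys, by 1.97 points on average (exact permutation p = 0.0286, adjusted p = 0.098). After correction the values were 1.60%, 1.18% and 1.72% in CR-old and 1.82%, 1.36%, 1.28% and 2.08% in AL-old, which overlapped (difference -0.13 points, exact permutation p = 0.657). On both scales all 7 old monkeys were above the AL-infant mean, which was 0.433% after correction. The class was chosen by its low AL-infant values, so this was partly built in. The 1304 sites between 5% and 35% changed direction with the scale. CR-old minus AL-old was -5.38 points uncorrected (exact permutation p = 0.0286) and 5.24 points corrected (exact permutation p = 0.0571). The groups did not overlap on either scale, but corrected CR-old 4 (21.5%) was nearly level with AL-old 2 (21.48%).

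**Figure D2:**
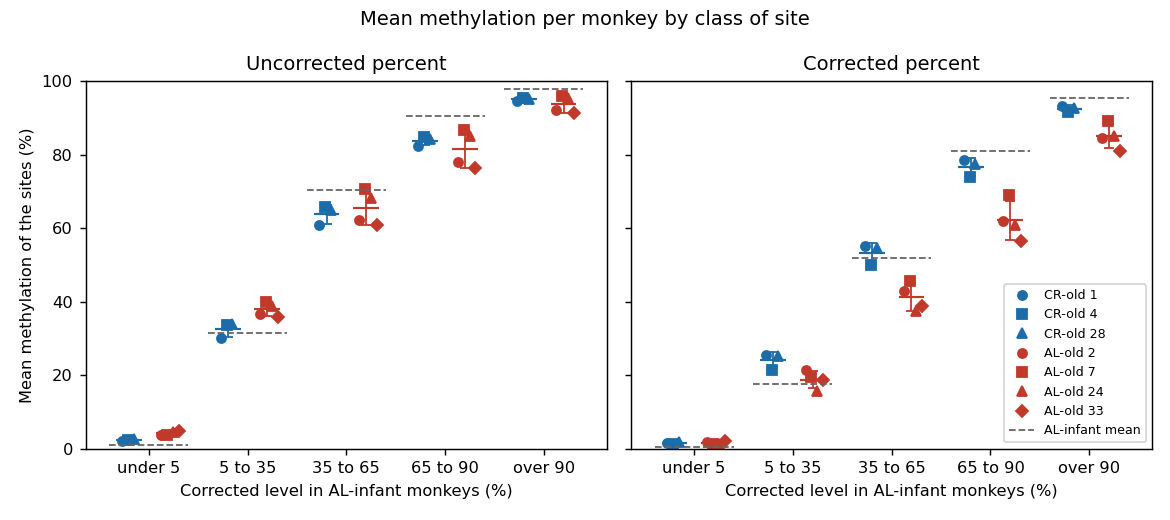
Mean methylation (%) of each old monkey in the 5 classes of sites, uncorrected on the left and corrected on the right, with group mean and SD as bars and the AL-infant mean as a dashed line. From 5% upwards the corrected CR-old values lie above all AL-old values, though CR-old 4 is nearly level with AL-old 2 at 5% to 35%. Uncorrected, CR-old lies below AL-old in the lowest 2 classes and overlaps it in the upper 3.

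A constant per library cancels in the difference of log odds between the low and the high sites, which measures how far apart the sites under 5% and over 90% have stayed. This contrast was -8.44, -8.53 and -7.84 in CR-old and -7.71, -8.18, -7.67 and -7.34 in AL-old. CR-old was further apart by 0.55 on average, but AL-old 7 lay within the range of CR-old (exact permutation p = 0.143). Depth does not cancel in this contrast. With 0.5 reads added to each kind, a site without methylated reads has lower log odds the more reads it has. The difference was -0.672 with 1 read added, -0.670 at a minimum of 20 reads and -0.479 at 200 reads. The part of depth in it was not tested. AL-old 7, at 29.8 years the oldest of the 7 monkeys, was also the AL-old monkey with the highest corrected mean at sites over 90%.

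Sites that moved between AL-infant and AL-middle, chosen on the corrected scale without the old monkeys, were followed next. At the 479 sites that had risen by at least 10 points, corrected methylation was 34.0% in AL-infant and 48.9% in AL-middle. CR-old read 50.9%, 46.6% and 51.2% at these sites, and AL-old read 43.03%, 41.5%, 37.1% and 41.9%. On this scale CR-old lay near AL-middle, and AL-old below it, with a difference of 8.68 points (exact permutation p = 0.0286, adjusted p = 0.114 over 4 tests). The sites were chosen by the AL-infant and AL-middle means, so the gap between those means was partly built in. The constants of AL-middle overlapped those of CR-old and were higher than all of AL-infant and AL-old. The part of the constants in this order was not tested. Uncorrected, the order was the reverse, with 58.6% ± 2.45 (SD, n = 3) in CR-old and 62.1% ± 1.56 (SD, n = 4) in AL-old (exact permutation p = 0.0857, with overlap). The uncorrected means were 49.05% in AL-infant and 59.3% in AL-middle, so that the AL-old mean was above AL-middle on that scale.

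At the 1494 sites that had fallen by at least 10 points, corrected methylation was 77.2% in AL-infant and 62.2% in AL-middle. It was 68.3%, 63.4% and 67.2% in CR-old and 49.9%, 57.8%, 49.5% and 44.9% in AL-old. Every CR-old monkey was above the corrected AL-middle mean and every AL-old monkey below it, and the groups differed by 15.8 points (exact permutation p = 0.0571, adjusted p = 0.114). The AL-middle mean was partly low by the choice of the sites. The constants of AL-old were below those of AL-middle here too, and their part was not tested. The uncorrected AL-middle mean was 72.4%, and on that scale AL-old 7 and 24 were above it as well. The uncorrected values of CR-old, 72.8%, 75.8% and 75.4%, fell within those of AL-old, 68.2%, 78.9%, 76.7% and 66.6% (difference 2.06 points, exact permutation p = 0.571). That uncorrected difference was 0.055 points without AL-old 33, 0.579 without AL-old 2, 3.42 without AL-old 24 and 4.17 without AL-old 7. It was 6.48 points against the female AL-old 2 alone, and -1.29 points at sites that had fallen by at least 20 points.

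The sites were tested one at a time with a logistic model of methylated and unmethylated reads, whose dispersion was moderated across all 33134 sites with limma. In the corrected counts, 4346 sites (13.1%) were higher and 166 (0.501%) lower in CR-old at an adjusted p under 0.05. In the uncorrected counts, 52 sites (0.157%) were higher and 646 (1.95%) lower. The 2 scales never called a site in opposite directions. All 52 sites called higher uncorrected were also called higher corrected. The correction raised CR-old over AL-old at every site, so this agreement was largely fixed in advance. Of the 646 called lower uncorrected, 150 were also called lower corrected (0.453% of all sites). The other 496 were not called in the corrected counts. The groups did not overlap at 7922 sites higher in CR-old (23.9%) and 631 lower (1.90%) on the corrected scale, and at 1015 higher (3.06%) and 4342 lower (13.1%) on the uncorrected scale.

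These counts depended on the model and on single monkeys. limma on the log odds called 0 sites higher and 2 lower (0.00604%) on either scale, beside 7690 higher and 389 lower at an unadjusted p under 0.05 in the corrected and 537 and 3678 in the uncorrected values. With age as a covariate, the logistic model called 3486 higher and 72 lower in the corrected counts, and 2 higher and 8 lower in the uncorrected counts. No site was called when AL-old 2 was the only AL-old monkey or CR-old 4 the only CR-old monkey. At an unadjusted p under 0.05, AL-old 2 alone gave 5803 higher and 784 lower corrected and 3154 higher and 1534 lower uncorrected. CR-old 4 alone gave 1888 higher and 443 lower corrected and 466 higher and 1288 lower uncorrected.

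Leaving out CR-old 1, 4 or 28 gave 2128, 3371 or 2078 sites higher and 55, 93 or 76 lower in the corrected counts. Leaving out AL-old 2, 7, 24 or 33 gave 2062, 6908, 2610 or 2869 higher and 57, 370, 100 or 117 lower. Sites higher in CR-old were the larger share in all 7 of these corrected fits. In the uncorrected counts, the sites called higher were 5, 1 and 8 without CR-old 1, 4 and 28, and the sites called lower 97, 79 and 449. Without AL-old 2, 24 or 33 the uncorrected fit called 0, 0 or 6 sites higher and 7, 22 or 201 lower. Without AL-old 7 it called 797 higher and 598 lower, the only one of the 7 uncorrected fits in which more sites were higher than lower.

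**Figure D3:**
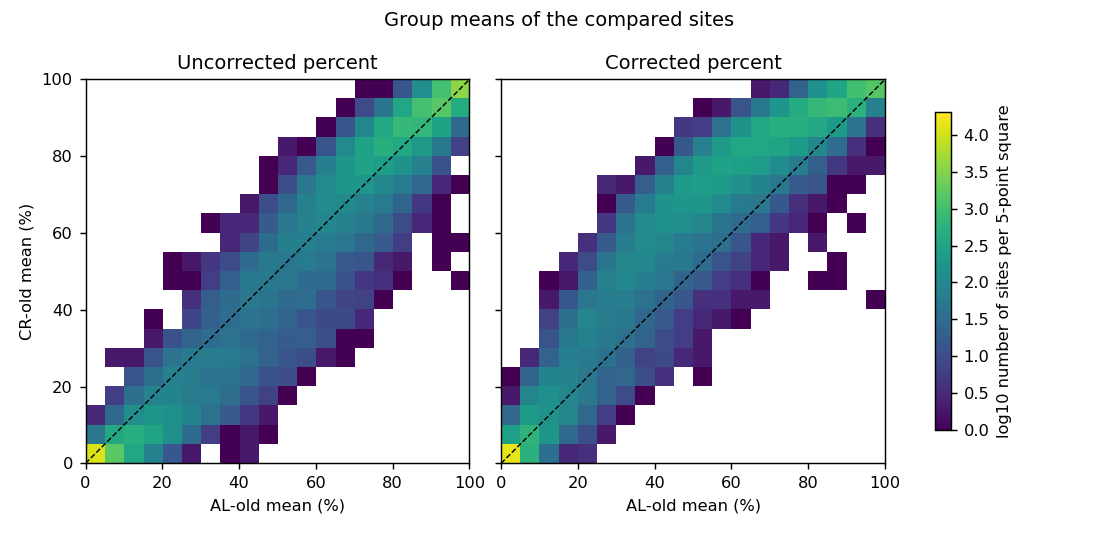
CR-old mean (vertical) against AL-old mean (horizontal) of the 33134 sites in squares of 5 points, coloured by the log10 number of sites, uncorrected on the left and corrected on the right, with the line of equality dashed. The corrected sites lie mostly above the line at intermediate levels, and the uncorrected sites lie on both sides of it.

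The size of the difference varied widely between sites. The corrected difference of means, CR-old minus AL-old, had a median of 0.60 points, a 5th percentile of -2.19 and a 95th of 22.9 points. It exceeded 20 points at 2765 sites and was under -20 points at 22. Uncorrected, the median was -0.084 points, 42 sites were over 20 points higher and 336 over 20 points lower.

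The calls were spread unevenly over the classes of sites. In the corrected counts, 1893 of 5520 sites between 65% and 90% in AL-infant were called higher (34.3%), 558 of 1911 between 35% and 65% (29.2%), 1336 of 7340 over 90% (18.2%), 309 of 1946 between 5% and 35% (15.9%) and 138 of 15290 under 5% (0.903%), against 13.1% of all sites. Of the 646 uncorrected sites called lower, 354 were under 5% in AL-infant and 138 between 5% and 35%. The lower calls made up 2.32% of the lowest class, near the 1.95% of all sites, 7.09% of the class of 5% to 35%, 3.61% of the class of 35% to 65%, 0.888% of the class of 65% to 90% and 0.368% of the sites over 90%.

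Other features divided the calls less. Another SmaI site lay within 200 bp of 61.5% of the compared sites, a sign of the local density of CCCGGG. Over all sites, 12.2% of those with such a neighbour and 14.5% of those without were called higher in the corrected counts. Among sites over 90% in AL-infant the order was the reverse, and 19.4% of those with such a neighbour and 16.9% of those without were called higher, at a median of 735 and 513 reads. Within 2 Mb of a chromosome end, counted from the first base and the last listed site, 17.6% were called higher, against 12.3% elsewhere. Within the class over 90% these shares were 19.1% and 17.9%, and within the class of 65% to 90% they were 33.6% and 34.5%. Between the 20 autosomes the share called higher ranged from 9.20% on chromosome 18 to 18.2% on chromosome 10.

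Neighbouring sites tended to move in the same direction. Of 2356 cases in which a site called higher in the corrected counts had a compared neighbour less than 200 bp away, the neighbour was called higher in 936 (39.7%, against 13.1% of all sites) and lower in 1. The share of all sites mixes the classes. Among sites with another SmaI site within 200 bp it was 35.6% at 65% to 90% in AL-infant and 32.2% at 35% to 65%. It was 19.4% over 90% and 0.998% under 5%. The part of the class in the shares of neighbours was not tested. Of 448 such cases for uncorrected sites called lower, the neighbour was called lower in 94, or 21%, against 1.95% of all sites, and higher in 0. For the uncorrected sites called higher, the neighbour was called in 0 of 28 cases, and its difference had the same sign in 19 (67.9%, against 42.2% of all sites).

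Sites called on both scales, and without overlap on both, had 1 direction whichever scale was read. They numbered 48 higher in CR-old (0.145% of the sites) and 98 lower (0.296%). For the higher sites the corrected scale was no second filter, since the correction moved CR-old further up. The 48 higher sites had a median corrected level of 82.7% in CR-old and 54.6% in AL-old, and the 45 of them measured in AL-infant had a median of 89.4% there. The 98 lower sites had a median of 5.14% in CR-old and 11.2% in AL-old, and the 92 measured in AL-infant a median of 1.93%. At 12 of the 48 and 36 of the 98, only 3 AL-old libraries had 100 reads. Since these sites were chosen for their difference between the diets, the values describe them and are no test. From each direction, the 8 sites with the largest corrected difference are described below by their number in the authors' list and their rheMac2 position, without gene annotation of that build.

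Sites 359987 and 359986, 1547 bp apart on chromosome 20, were among the 8 largest rises. At site 359986 (position 83600817) corrected methylation was 91.0%, 87.4% and 89.4% in CR-old and 52.7%, 59.4%, 61.2% and 57.4% in AL-old. Every AL-old monkey was over 25 points below the lowest CR-old monkey, and the AL-infant mean was 96.1% (n = 4). The difference was 31.6 points corrected and 13.2 points uncorrected (log odds 1.96 ± 0.135 SE corrected, adjusted p from the logistic model 0.00225 and 0.0351). At site 359987 (position 83602364) it was 76.0%, 70.7% and 67.8% in CR-old and 30.7%, 31.7% and 25.9% in AL-old 2, 24 and 33, and 50.8% in AL-old 7 at only 35 reads, which was left out. Uncorrected, that AL-old 7 value was 76.4%, just below the lowest CR-old value of 77.1%. The compared site 94 bp before 359986 read 62.3%, 64.7% and 72.3% in CR-old and 49.7% to 54.3% in AL-old, without overlap (adjusted p 0.0804 corrected and 0.694 uncorrected).

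Site 346615, at position 755612 of chromosome 20, read 80.8%, 75.2% and 81.4% in CR-old and 43.3%, 50.2%, 48.4% and 46.6% in AL-old, all corrected. The AL-infant mean was 83.6%, close to CR-old. Its difference was 32.0 points corrected and 13.6 points uncorrected (adjusted p from the logistic model 0.00144 and 0.0496). Of its 4 compared neighbours within 1000 bp, the one with the largest difference, 352 bp further on, read 70.6%, 86.0% and 78.5% in CR-old and 39.7% to 48.6% in AL-old (adjusted p 0.00971 corrected and 0.339 uncorrected). The groups did not overlap at these sites or at the neighbour 128 bp before, but they overlapped at the neighbours 469 and 901 bp further on, where AL-old 2 (40.1%) and AL-old 7 (86.8%) were above CR-old 4 (37.5% and 80.9%).

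Site 238769, at position 106357981 of chromosome 12, had 67.2%, 64.96% and 64.4% in CR-old and 37.6%, 33.7%, 34.5% and 29.8% in AL-old after correction. CR-old lay near the AL-infant mean of 68.6% and above the AL-middle mean of 55.7%. The difference was 31.6 points corrected and 14.9 points uncorrected (adjusted p from the logistic model 0.00139 and 0.03). The site 211 bp away differed in the same direction, at 59.5% to 73.6% in CR-old and 35.2% to 55.6% in AL-old.

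The remaining 4 of the 8 higher sites were on chromosomes 6 (site 116184), 9 (187608), 10 (189573) and 14 (256190), with corrected differences of 30.0 to 33.8 points. Their uncorrected differences were 13.2 to 17.6 points. At sites 187608 and 116184 AL-old 24 had 66 and 23 reads and was left out. Its corrected values there were 26.4% and 68.3%, both below the lowest CR-old value of 67.7% and 73.4% at the respective site. Uncorrected, AL-old 24 was at 59.0% at site 187608, below CR-old, but at 89.6% at site 116184, above all CR-old values (84.8% to 86.7%). The uncorrected absence of overlap at site 116184 thus rested on leaving out AL-old 24. With every library of at least 20 reads included, the uncorrected adjusted p of sites 189573, 346615 and 256190 was 0.0582, 0.0592 and 0.0574, and the other 5 sites were called on both scales.

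**Figure D4:**
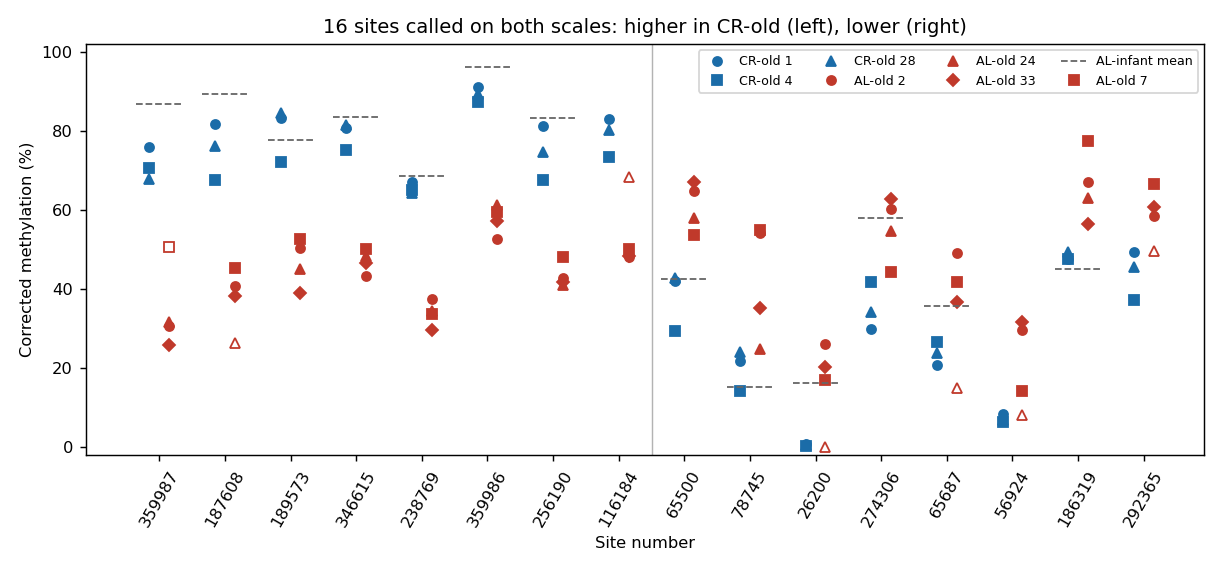
Corrected methylation (%) of the 7 old monkeys at the 16 sites, higher in CR-old on the left and lower on the right, with the AL-infant mean dashed where at least 3 infants had 100 reads. Hollow points have under 100 reads and were not used. At sites 26200, 65687 and 56924 the hollow AL-old 24 point lies within or below the CR-old range.

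Among the 8 lower sites, site 65500 at position 61330429 of chromosome 3 had the largest corrected difference. It read 41.97%, 29.4% and 42.7% in CR-old and 64.7%, 53.7%, 58.1% and 67.0% in AL-old, with AL-infant at 42.6%. CR-old was thus at or below the infant level and AL-old above it. The difference was -22.9 points corrected and -32.8 points uncorrected (log odds -0.75 ± 0.167 SE corrected, adjusted p from the logistic model 0.032 and 0.0214). A neighbour 300 bp away did not follow, at 68.6% to 89.6% in CR-old and 79.8% to 92.9% in AL-old (adjusted p 0.861 corrected).

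Site 78745, at position 195623886 of chromosome 3, read 21.9%, 14.2% and 23.99% in CR-old and 54.3%, 55.0%, 24.9% and 35.2% in AL-old. AL-old 24 lay just above the highest CR-old monkey, and AL-infant averaged 15.3%. The difference was -22.4 points corrected and -39.1 points uncorrected. The site 78 bp before it read 20.6%, 14.2% and 22.8% in CR-old and 28.9%, 48.9%, 18.9% and 29.2% in AL-old, where AL-old 24 lay within the CR-old range (adjusted p 0.101 corrected and 0.0527 uncorrected). AL-old 24 was the youngest of the AL-old monkeys.

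Site 186319 on chromosome 9, at position 125354792, was deeply read in all 7 libraries, with 471 to 5479 reads. It read 47.5%, 47.7% and 49.4% in CR-old and 67.0%, 77.4%, 63.0% and 56.6% in AL-old. AL-infant averaged 45.1% (26.2% to 63.2%) and AL-middle 51.2% (34.4% to 65.1%). The 3 CR-old monkeys were within 2 points of each other and all below AL-old (difference -17.8 points corrected and -24.9 uncorrected, adjusted p from the logistic model 0.0189 and 0.0332). Site 274306 on chromosome 15 read 30.0%, 41.7% and 34.3% in CR-old and 60.3%, 44.3%, 54.6% and 62.8% in AL-old. Here the AL-infant mean of 57.9% was on the side of AL-old, and the difference was -20.2 points corrected and -31.9 points uncorrected.

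The pair of sites 26199 and 26200, 204 bp apart on chromosome 1 at positions 154856177 and 154856381, held the 2 lower calls of limma on both scales (adjusted p 0.0138 and 0.0156 corrected, 0.00176 for both uncorrected). Corrected methylation at site 26200 was 0.73%, 0.37% and 0.53% in CR-old and 26.1%, 17.02% and 20.3% in AL-old 2, 7 and 33. AL-old 24 was left out with 71 reads, 0 of them methylated, which allows a share of up to 4.23% by the limit of 3 reads (exact 95% upper bound 5.06%). It was therefore with CR-old, and at site 26199 it had 1 methylated read of 73 (uncorrected share 1.37%, exact 95% interval 0.0347% to 7.40%). The monkeys of other ages also fell apart at this site. In AL-infant 52, 54 and 57 the uncorrected share of methylated reads was 39.0%, 38.8% and 37.5%, and in AL-infant 49 it was 2.16% of 232 reads. In AL-middle 43 and 46 it was 28.3% and 28.1%, of 99 and 32 reads, and in AL-middle 17, 40 and 42 it was 1.27%, 0% and 0%, of 236, 28 and 26 reads. Low values thus occurred in 3 of 3 CR-old, 1 of 4 AL-old, 3 of 5 AL-middle and 1 of 4 AL-infant monkeys, and the absence of overlap between the diets rested on leaving out AL-old 24. The logistic fit at 20 reads or more, over 48795 sites, included AL-old 24. In that fit the adjusted p of site 26200 was 0.00733 corrected and 0.0134 uncorrected.

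The last 3 lower sites had 3 AL-old libraries of 100 reads. At site 65687 on chromosome 3 AL-old 24 read 15.0% with 63 reads, below all 3 CR-old monkeys (20.7% to 26.6%). The logistic fit at 20 reads or more included AL-old 24 and covered more sites. In that fit the adjusted p was 0.115 corrected and 0.055 uncorrected. The uncorrected value of AL-old 24, 41.4%, was also within the CR-old range of 25.3% to 42.3%. At site 56924, also on chromosome 3, AL-old 24 read 8.15% with 20 reads, within the CR-old range of 6.45% to 8.47%. Uncorrected it read 26.2%, above the CR-old range of 10.7% to 12.2%. In the same fit at 20 reads or more, the site was called on both scales (adjusted p from the logistic model 0.0396 corrected and 0.0345 uncorrected). At site 292365 on chromosome 16 AL-old 24 read 49.7% with 51 reads, just above the highest CR-old value of 49.5%, and 79.8% uncorrected, above the CR-old range of 54.7% to 57.3%. The uncorrected differences of these 3 sites, without AL-old 24, were -33.2, -35.5 and -25.3 points.

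The CR-old monkeys were more alike than the AL-old monkeys. The mean absolute difference per site between a pair of monkeys, on the corrected scale, was 3.70, 2.33 and 3.53 points for the 3 CR-old pairs and 4.41 to 7.16 points for the 6 AL-old pairs. Uncorrected, the 3 CR-old pairs differed by 3.05, 2.43 and 2.81 points and the AL-old pairs by 3.24 to 6.18 points. No AL-old pair was as close as any CR-old pair on either scale. Averaged per monkey over the others of its group, the distance was 3.01, 3.61 and 2.93 points in CR-old and 4.87, 5.80, 4.94 and 5.84 points in AL-old after correction (difference -2.18 points, exact permutation p = 0.0286). Uncorrected, the mean distance was 2.77 points in CR-old and 4.77 points in AL-old (exact permutation p = 0.0286). Since each pair enters the values of both its monkeys, these values are not independent. The permutation shuffled the fixed values and did not recompute distances within the relabelled groups. A p for distances thus describes the order of the values and is no test of spread between the diets.

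The order was the same at equal depth. Counting error alone would give 0.551 to 0.911 points for the CR-old pairs and 1.01 to 1.57 points for the AL-old pairs. With every library thinned to 100 reads at each site, the distance per monkey was 4.01 to 4.48 points in CR-old and 5.67 to 6.50 points in AL-old after correction, and 3.56 to 3.73 against 4.87 to 5.71 points uncorrected. Measured in log odds instead of points, the corrected groups overlapped, at 0.533 to 0.622 in CR-old and 0.597 to 0.674 in AL-old (exact permutation p = 0.143). The uncorrected log odds did not overlap, at 0.557 to 0.572 and 0.664 to 0.702. The CR-old monkeys were also of 1 sex and within 23.7 to 25.1 years, while the AL-old monkeys were of both sexes and 21.9 to 29.8 years old, and the part of this in the spread was not tested.

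The SD between monkeys at a single site was smaller in CR-old at 64.7% of the 20759 sites after correction and at 72.3% uncorrected. These SDs are of 3 against 4 values and were not taken at equal depth. Either can by itself make the SD of CR-old the smaller one more often, and the part of each was not tested. The median SD was 1.18 points in CR-old and 2.95 points in AL-old after correction. At the sites between 65% and 90% in AL-infant it was 4.099 and 8.31 points corrected and 2.80 and 6.41 points uncorrected. At the sites over 90% it was 1.46 and 5.26 points corrected and 0.996 and 2.48 points uncorrected. At the sites under 5% the corrected medians were 0.200 and 0.184 points, and CR-old had the smaller SD at 44.6% of the sites, whereas uncorrected they were 0.300 and 0.586 points with CR-old smaller at 70.1%. Between 5% and 35%, the corrected distance between monkeys was larger in CR-old (7.55 points) than in AL-old (7.19 points), and uncorrected it was smaller (8.83 and 10.1 points). An SD over 10 points occurred at 788 sites in CR-old (3.796%) and at 2858 in AL-old (13.8%). The 354 sites over 10 points in both groups were 44.9% of those in CR-old and 12.4% of those in AL-old.

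AL-old 7 was nearer to each of the 3 restricted monkeys than to AL-old 2 and 33. Its corrected distance was 5.01, 4.17 and 4.70 points to CR-old 1, 4 and 28, and 5.30, 4.94 and 7.16 points to AL-old 2, 24 and 33. The uncorrected distances were 4.102, 3.597 and 3.41 points to CR-old and 5.10, 3.24 and 6.18 points to AL-old in the same order. AL-old 33 was the farthest from CR-old after correction, at 10.1, 8.44 and 9.69 points. These 2 males of 29.8 and 29.3 years were the oldest monkeys and the most distant pair within a group, at 7.16 points corrected and 6.18 points uncorrected.

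**Figure D5:**
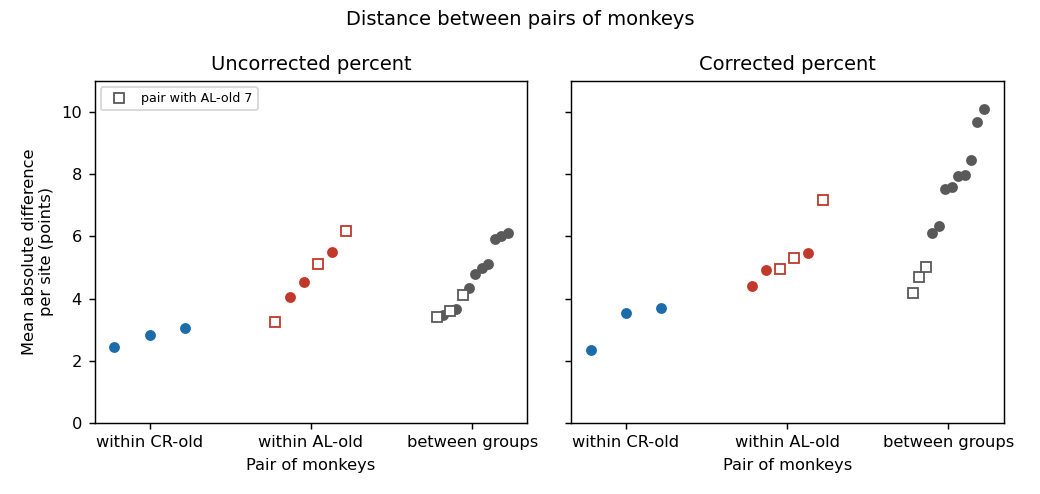
Mean absolute difference per site (points) for each pair of the 7 monkeys, uncorrected on the left and corrected on the right; hollow squares are pairs with AL-old 7. All 3 pairs within CR-old lie below all 6 pairs within AL-old on both scales, and the corrected pairs between the groups reach from 4.17 to 10.1 points.

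CR-old 4 and AL-old 2 were both females of 23.7 years with similar read totals (18089849 and 19801924) and the nearest constants of the 2 groups. CR-old 4 was over 10 points higher at 4760 of the 20759 sites and AL-old 2 at 547 after correction, and the uncorrected counts were 2521 and 1073. For this pair, CR-old 4 was thus more often the higher monkey on both scales. At sites over 90% in AL-infant CR-old 4 had 91.5% and AL-old 2 84.5% corrected, and 95.5% and 92.3% uncorrected. At sites under 5% they had 1.18% and 1.82% corrected and 2.27% and 3.88% uncorrected. CR-old 4 was therefore higher at high sites and lower at low sites on both scales, and nearer to the AL-infant mean of both classes. This is 1 monkey per diet, with no test. Against AL-old 2, the means of the 3 CR-old monkeys went the same way on both scales, at 92.5% and 95.1% in the high class and 1.502% and 2.32% in the low class.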

How the data were processed

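DREAM was performed on whole blood DNA of 16 rhesus monkeys, and the 3 CR-old and 4 AL-old libraries were compared. The authors mapped reads to rheMac2 (Bowtie2 and SAMtools in the submitters' processing notes, versions not given in the sources used here) and deposited, for each SmaI site, the counts of reads with either signature and their total, with no filter. They also deposited an uncorrected percent (0.5 reads added to each kind) and a corrected percent, whose odds are multiplied by 1 constant per library from the standards. Both relations were checked on the files. Replicates are separate monkeys.

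Counts were tested per site with a quasi-binomial logistic model, without and with the log constant as an offset. Dispersion was moderated by limma (3.58.1, R 4.3.3) and p adjusted by Benjamini-Hochberg over 33134 sites. Values per monkey were compared by two-sided exact permutation tests with scipy 1.17.1 (Python 3.11.15). The model with the offset was also run on simulated data with a set noise between libraries. That noise was not estimated from these libraries, so the run does not measure false calls here. Named sites were called at an adjusted p under 0.05 on both scales, without overlap on both, taking the 8 largest corrected differences each way and at most 1 site per 1000 bp. Members and lists were chosen with earlier results of these data known. Values under 100 reads were left out. Depth limits single values, intervals cover counting error only, and PCR reads carry no molecular identifiers. The alternatives were other read minimums, models, site sets and subsets of monkeys. No gene annotation of rheMac2 was used, so blood markers were not examined.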

Additional observations from a re-analysis of the deposited data

Results flagged for a closer look

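Of 39 sets of 4 AL-old values examined for a value far from the other 3, 1 was flagged, and chance flags about 1 in 20. The unmethylated standard La248, corrected, read 0.15% in AL-old 7 and 0.060% to 0.075% in the other AL-old libraries. In CR-old it read 0.185%, 0.070% and 0.425%.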

How the results depend on the processing

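With limma on the log odds, the uncorrected calls were 0 higher and 2 lower and the corrected calls 0 and 2. With age as a covariate they were 2 and 8 uncorrected and 72 lower corrected. They were 0 in both directions on both scales with the female AL-old monkey only and with CR-old 4 only, where fewer samples entered. At 200 reads the uncorrected fit called 27 higher and 396 lower, with 1 site per run of close sites 415 lower, and a minimum difference of 5 points left 76 lower corrected. Without 1 monkey, uncorrected calls ranged from 0 to 797 higher and from 7 to 598 lower, and corrected calls from 2062 to 6908 higher and from 55 to 370 lower. The cause was not tested.

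Leaving out 1 monkey allows no p under 0.0667 and kept the direction of each difference with an unadjusted exact permutation p of 0.0286. The difference ranged from -2.13 to -1.75 points at sites under 5% uncorrected, from -6.06 to -4.14 at 5% to 35% uncorrected, from 10.8 to 13.6 at 35% to 65% corrected and from 7.42 to 10.2 at risen sites corrected. The difference in distance between animals, whose p is no test of spread, ranged from -3.03 to -1.67 corrected and from -2.34 to -1.53 uncorrected. It was -0.060 in corrected log odds. At 5% to 35% corrected, the difference was 2.67 points with CR-old 4 only and 2.59 against the female AL-old only. At risen sites it was 5.72 corrected with CR-old 4 only, and -4.46 uncorrected at 200 reads (exact permutation p = 0.0286). Differences that did not pass the test turned direction at times. Uncorrected, all sites gave 0.981 against the female AL-old only and -1.10 to 0.098 without 1 monkey, and sites of 35% to 65% gave 0.123 with CR-old 4 only, 1.56 against the female AL-old only and 0.143 with classes from AL-middle. Fallen sites gave -1.29 uncorrected for a move of 20 points, and corrected sites under 5% gave -0.25 to 0.031 without 1 monkey. In 226 other changes of a setting, a result kept its direction, and its side of the threshold or, where there was no test, its size within the spread or within 1.5 times a count. A dispersion of at least 1, and site means over at least 3 AL-old libraries, were chosen after seeing the data, as were the values at 20 reads. No paired analysis was possible because the groups share no replicate numbers.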
